A study of Gossypium hirsutum with 2 samples.

Results

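The transcripts described here are 3 unigenes whose annotation names a protein-cutting enzyme and whose level was far higher in a cotton ovule library than in a cotton fiber library. They are Unigene0034980, annotated as an intracellular protease of the PfpI family, Unigene0049096, annotated as an aspartic proteinase of the nepenthesin-2 type, and Unigene0066993, annotated as a vacuolar-processing enzyme. They were chosen by their ratio between the libraries, so their own levels and ratios are a description and carry no test. They are 3 of the 136262 unigenes listed in at least 1 of the deposited tables.

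Transcripts were counted in 2 samples of upland cotton, Gossypium hirsutum, with 1 library each, both at 10 days post anthesis. The first, WT fiber, is fiber of the wild type cultivar Xuzhou142, whose fibers develop normally. The second, FL ovule, is ovule of XZ142FLM, with the genotype li3li3n2n2 and seeds labelled fuzzless and lintless, with little fiber. Total RNA was divided into a poly(A)-selected and a ribosomal RNA-depleted portion, and the labels do not say which of them the values come from. A fiber sample holds elongated cells of the seed coat epidermis, whereas an ovule at this age also holds the inner seed coat, the endosperm and the embryo. Tissue and genotype differ together and their parts cannot be told apart. The labels used here do not say how many plants went into a sample. In such bulk samples a smaller number of cells of a type and less RNA per cell cannot be told apart either.

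Vacuolar-processing enzymes, also called legumains, are cysteine proteases that cut after asparagine and mature other vacuolar proteins. In Arabidopsis the beta form processes seed storage proteins, the gamma form is known from vegetative tissue, and the delta form acts in programmed cell death of the inner seed coat of young seeds. Nepenthesins are pepsin-like aspartic proteases, named after the enzymes that pitcher plants secrete into their traps. PfpI is a protease of the archaeon Pyrococcus furiosus. It shares a fold with DJ-1 proteins and with the class I glutamine amidotransferase-like superfamily, and plant relatives in that superfamily are not all proteases. Names here rest on the annotation text of the deposited tables alone, and no sequence of these unigenes was available for this work.

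The WT fiber sample gave a library of 45.6 M reads, called the fiber library below, and the FL ovule sample one of 53.4 M reads, called the ovule library. A unigene listed in one table alone was given 0 reads in the other library. The 30 unigenes with most reads took 21.1% of the reads of the fiber library and 38.5% of those of the ovule library. RPKM is the number of reads per kilobase of unigene and per 1 M reads of the library. Over all unigenes RPKM summed to 865807 in the fiber library and 1336140 in the ovule library. Values given with an equal RPKM sum are rescaled so that these sums match, and totals that omit the top 30 by reads are library totals without those 30 unigenes. A unigene counted as measured at 1 RPKM or more in at least 1 library, and 63258 unigenes were. Ratios below are log2((WT fiber RPKM + 1) / (FL ovule RPKM + 1)), so a negative ratio means a higher level in the ovule library, and the added 1 understates the change of low unigenes. Counts of unigenes at least 2-fold higher use these ratios. The cut of 1 RPKM was applied after any rescaling, so the number of measured unigenes differs between scalings. Single folds are ratios of RPKM with nothing added. Their 95% intervals are exact (Clopper-Pearson), rest on the reads alone and cover counting error only. Reads carry no molecular identifiers, so even that error is larger than the intervals show. With 1 library per sample there is no replicate spread and no test.

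The library labels were set against marker lists built from annotation text. Fiber markers (134 measured of 169) summed to 20972 RPKM in the fiber library and 2658 RPKM in the ovule library. By number, 44 of the 134 were at least 2-fold higher in the fiber library and 30 in the ovule library, against 10.5% and 15.3% of all measured unigenes. Their median ratio was 0.25, and the counts were 35 and 43 of 146 on totals that omit the top 30 by reads. The alpha expansin Unigene0055966, which loosens the wall of growing cells, alone had 6967 RPKM in the fiber library and 7.32 RPKM in the ovule library. The fasciclin-like Unigene0060028 had 626 and 0.955 RPKM. Towards the ovule the ratios of the list reached -3.49. Markers of the inner seed coat (7 measured of 8, all with reads in both libraries) summed to 149 RPKM in the fiber library and 372 RPKM in the ovule library. Of the 7, 3 were at least 2-fold higher in the ovule library and 0 in the fiber library (2 and 0 with an equal RPKM sum). The shares over all measured unigenes were 15.3% and 10.5%. Highest in the ovule library was leucoanthocyanidin reductase 1 (Unigene0059650), an enzyme of seed coat tannin synthesis. It had 41.9 RPKM in the fiber library and 180 RPKM in the ovule library. Highest in the fiber library was Unigene0067461, with 36.8% of the fiber sum. The TRANSPARENT TESTA 12-like Unigene0070365 had 3.25 and 12.9 RPKM. Endosperm regulators (8 measured of 12) were low in both libraries. None of them exceeded 2.27 RPKM, and 1 had 0 reads in the fiber library and 3 had 0 reads in the ovule library. At least 2-fold higher were 3 (37.5%) in the fiber library and 1 (12.5%) in the ovule library, against 10.5% and 15.3% of all measured unigenes. The HAIKU2 unigenes Unigene0013999 and Unigene0014001 had 54 and 35 reads in the fiber library and 0 in the ovule library. Against a floor of 3 reads they were at least 21.1-fold and 13.7-fold higher in the fiber library. Another, Unigene0069565, had 0.984 and 2.27 RPKM. Storage and late embryogenesis proteins (64 measured of 98, with 3 at 0 reads in the fiber library and 1 in the ovule library) summed to 917 RPKM in the fiber library and 654 RPKM in the ovule library. That list takes in unrelated texts, among them immunoglobulin and hydroxyproline-rich ones. Without these, 17 of the remaining 37 measured (45.9%) were at least 2-fold higher in the ovule library and 8 (21.6%) in the fiber library. Over all measured unigenes the shares were 15.3% and 10.5%. With 5 RPKM added in place of 1 the counts were 4 and 4. The sum of these 37 was still higher in the fiber library, with 727 RPKM against 451 RPKM. The 11S globulin Unigene0127740 had 2 reads in the fiber library and 877 reads in the ovule library, or 0.035 and 13.2 RPKM. The largest ratio of the list went towards the fiber. It was that of the late embryogenesis unigene Unigene0123729, with 1794 reads in the fiber library and 8 in the ovule library, or 70.5 and 0.269 RPKM. Unigene0054957, of a hydroxyproline-rich text, had 15.2 and 0.133 RPKM. The most abundant, Unigene0137693, had 274 and 139 RPKM. Photosynthesis genes (78 measured of 142, with 1 at 0 reads in the fiber library and none in the ovule library) summed to 1195 RPKM in the fiber library and 755 RPKM in the ovule library. The plastid photosystem unigene Unigene0108071 alone was 51.6% of the fiber sum, with 617 and 208 RPKM. By number, 17 of the 78 (21.8%) were at least 2-fold higher in the ovule library and 9 (11.5%) in the fiber library. Over all measured unigenes the shares were 15.3% and 10.5%. The median ratio of the 78 was -0.29, and the counts were 9 and 17 of 84 with an equal RPKM sum. Among those higher in the ovule library as deposited were the Rubisco unigene Unigene0051857, with 1.52 and 19.6 RPKM, and the chlorophyll-binding protein Unigene0074073, with 0.188 and 5.45 RPKM. The part of these other cell types in the levels of the 3 proteases was not tested.

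All 3 proteases had a far higher level in the ovule library than in the fiber library. Together they held 76710 reads in the ovule library, 0.144% of that library, and 604 reads in the fiber library, 0.00132% of that library. In sum they reached 1944 RPKM in the ovule library and 9.82 RPKM in the fiber library. Their levels in the ovule library followed the order PfpI protease, vacuolar-processing enzyme, aspartic proteinase. In the fiber library the vacuolar-processing enzyme was the highest of the 3 and the aspartic proteinase the lowest.

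The PfpI family protease Unigene0034980 had 47 reads in the fiber library and 35279 reads in the ovule library. Its level was 2.31 RPKM in the fiber library (counting interval 1.69 to 3.07) and 1479 RPKM in the ovule library (1463 to 1494). The fold was 641 towards the ovule (482 to 873), and 416 once both libraries were rescaled to an equal RPKM sum. In the ovule library it held rank 41 among all unigenes by RPKM and rank 1 among 385 measured protease unigenes. In the fiber library it held rank 24417 among all unigenes. Of the reads that both libraries had on it, 0.133% came from the fiber library (0.0978% to 0.177%). The unigene is 447 bases long, room for at most 149 codons, and the deposited tables tag it with hydrolase activity and general metabolic processes and with no pathway.

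The aspartic proteinase Unigene0049096 had 37 reads in the fiber library and 18088 reads in the ovule library. That made 0.468 RPKM in the fiber library (0.33 to 0.646) and 196 RPKM in the ovule library (193 to 199). The fold was 418 (303 to 593), or 271 with an equal RPKM sum and 134 with 1 RPKM added to both levels. It held rank 270 among all unigenes in the ovule library and rank 66275 in the fiber library, where it lay below the level that counts as measured. It is 1732 bases long and carries no pathway or function tag.

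The vacuolar-processing enzyme Unigene0066993 had 520 reads in the fiber library and 23343 reads in the ovule library. Its level was 7.04 RPKM in the fiber library (6.45 to 7.67) and 270 RPKM in the ovule library (267 to 274). The fold was 38.4 (35.2 to 41.9), or 24.9 with an equal RPKM sum. It held rank 178 among all unigenes in the ovule library and rank 12230 in the fiber library, where it was rank 120 among the 385 measured protease unigenes. Of the 3 it was the one with the clearest level in fiber, with 2.18% of its reads in the fiber library (2.0% to 2.37%). Its length is 1619 bases.

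**Figure D1:**
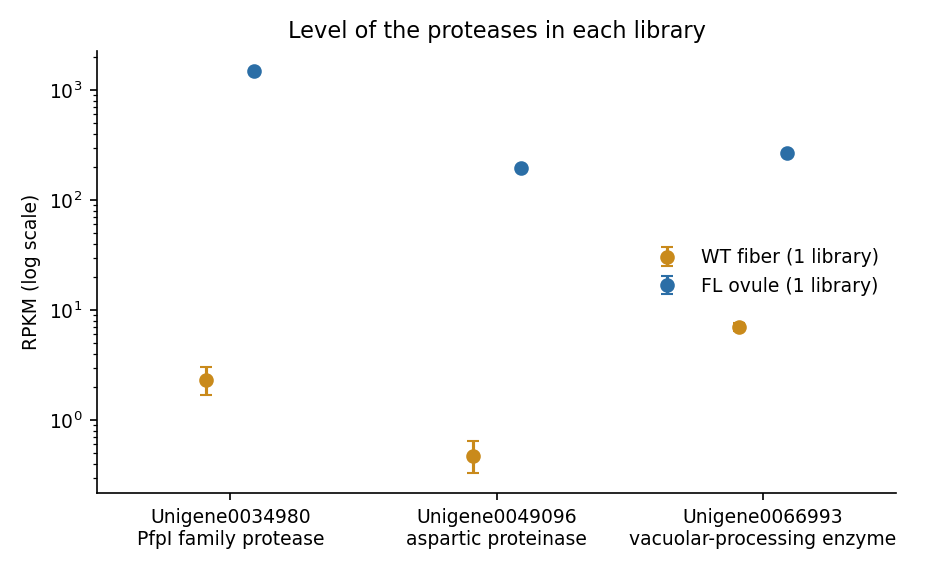
Level of each protease in each library, in RPKM on a log axis; points are single libraries and bars are 95% exact Poisson counting intervals, mostly smaller than the points. The FL ovule points lie between 196 and 1479 RPKM and the WT fiber points between 0.468 and 7.04 RPKM.

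Reads covered the unigenes along most of their length in both libraries, by the authors' coverage values. These values carry a percent sign but exceed 100 for 9 unigenes in the fiber library and 14 in the ovule library, so they are read here as an approximate score. For the PfpI protease the coverage was 93.3 in the fiber library and 99.8 in the ovule library. For the aspartic proteinase it was 79.2 and 99.8, and for the vacuolar-processing enzyme 98.02 and 99.94. The few reads of the PfpI protease and of the aspartic proteinase in the fiber library were thus spread over most of the unigene.

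The members lie among the first 10 of the order from which they were chosen. Ordered by ratio among annotated unigenes with 10 RPKM or more in a library, they held ranks 1, 2 and 9 towards the ovule, with ratios of -8.81, -7.07 and -5.08. Among all measured unigenes, unannotated and low ones included, the vacuolar-processing enzyme held rank 13. The list ended at rank 10 with the uncharacterized Unigene0009126, at a ratio of -5.07. The next unigene outside it, the uncharacterized Unigene0092675, had a ratio of -4.97.

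Few other unigenes carried the same annotation. No other unigene carried the exact text of the PfpI protease or of the vacuolar-processing enzyme. The exact text of the aspartic proteinase occurred on 1 other unigene, Unigene0017736, which had 5 reads in the fiber library and 14 reads in the ovule library and was not measured. Leaving aside the species named in the text, 5 measured unigenes were also called nepenthesin-2-like. Of these, 2 were at least 2-fold higher in the fiber library and 0 in the ovule library by the ratio with 1 RPKM added, where 10.5% and 15.3% of all measured unigenes were. With nothing added, the other 3 had folds towards the ovule of 2.47 (1.59 to 3.95) for Unigene0026835, 2.24 (1.38 to 3.75) for Unigene0003008 and 2.0 (1.33 to 3.07) for Unigene0043004, at no more than 3.64 RPKM.

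Among all unigenes named nepenthesin, the aspartic proteinase and Unigene0080170 lay at opposite ends. Unigene0080170, also nepenthesin-2-like, had 478 RPKM in the fiber library and 26.0 RPKM in the ovule library, 18.4-fold higher in the fiber library (17.6 to 19.1). Unigene0096298 had 12.1 RPKM in the fiber library and 4.27 RPKM in the ovule library. The nepenthesin-1-like Unigene0066758 was abundant in both, with 235 RPKM in the fiber library and 304 RPKM in the ovule library. Counting 13 measured nepenthesin unigenes, a group put together after the values were seen, Unigene0049096 made up 33.7% of their summed RPKM in the ovule library and 0.0614% in the fiber library. It held rank 2 in the ovule library and rank 12 in the fiber library. Unlike folds, such shares within a library do not depend on the scaling between libraries as long as the set of unigenes is fixed. The measured set itself can change, to 14 nepenthesin unigenes on totals that omit the top 30 by reads.

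The vacuolar-processing enzymes had a different leading unigene in each library. Of 9 unigenes with such texts, 7 were measured. In the fiber library the gamma forms led, with Unigene0072756 at 28.9 RPKM, Unigene0130425 at 21.8 RPKM, Unigene0072758 at 18.2 RPKM and Unigene0072757 at 16.9 RPKM. In the ovule library these had 16.3, 14.6, 15.5 and 7.26 RPKM. The beta form Unigene0135272, named for the storage protein processing enzyme of Arabidopsis, had 7.60 RPKM in the fiber library and 2.74 RPKM in the ovule library. Unigene0066993 thus made up 82.4% of the summed RPKM of the class in the ovule library, at rank 1 of 7, and 6.98% in the fiber library, at rank 6. Without it the class summed to 93.9 RPKM in the fiber library and 57.6 RPKM in the ovule library. The coverage values of the gamma forms ranged from 47.0 to 83.9 for the 4 named here. Closely related copies can divide reads between them, so single values of the gamma forms are uncertain.

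No other unigene was annotated as PfpI or DJ-1. The superfamily that holds them, class I glutamine amidotransferase-like proteins, had 10 measured unigenes of 17 and was looked up after the values were seen. Their summed level was 344 RPKM in the fiber library and 165 RPKM in the ovule library. The most abundant, Unigene0044707, had 122 and 84.8 RPKM. At 2-fold or more, 3 (30%) were higher in the fiber library and 1 (10%) in the ovule library, against 10.5% and 15.3% of all measured unigenes. On totals that omit the top 30 by reads the counts were 2 and 3 of 12. Those of all measured unigenes were then 5629 and 25207 of 88792. With 1 unigene per annotation text the superfamily counts were 0 and 0 of 2. Set beside the superfamily unigenes, the PfpI protease equalled 90.0% of the joint sum in the ovule library and 0.665% in the fiber library. A pair of these unigenes, Unigene0046453 and Unigene0046454, went far the other way. Unigene0046453 had 1857 reads in the fiber library and 9 reads in the ovule library, or 71.9 and 0.298 RPKM, a fold of 241 towards the fiber (127 to 529). Unigene0046454 had 852 and 4 reads, or 31.6 and 0.127 RPKM, a fold of 249 (97.0 to 917).

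**Figure D2:**
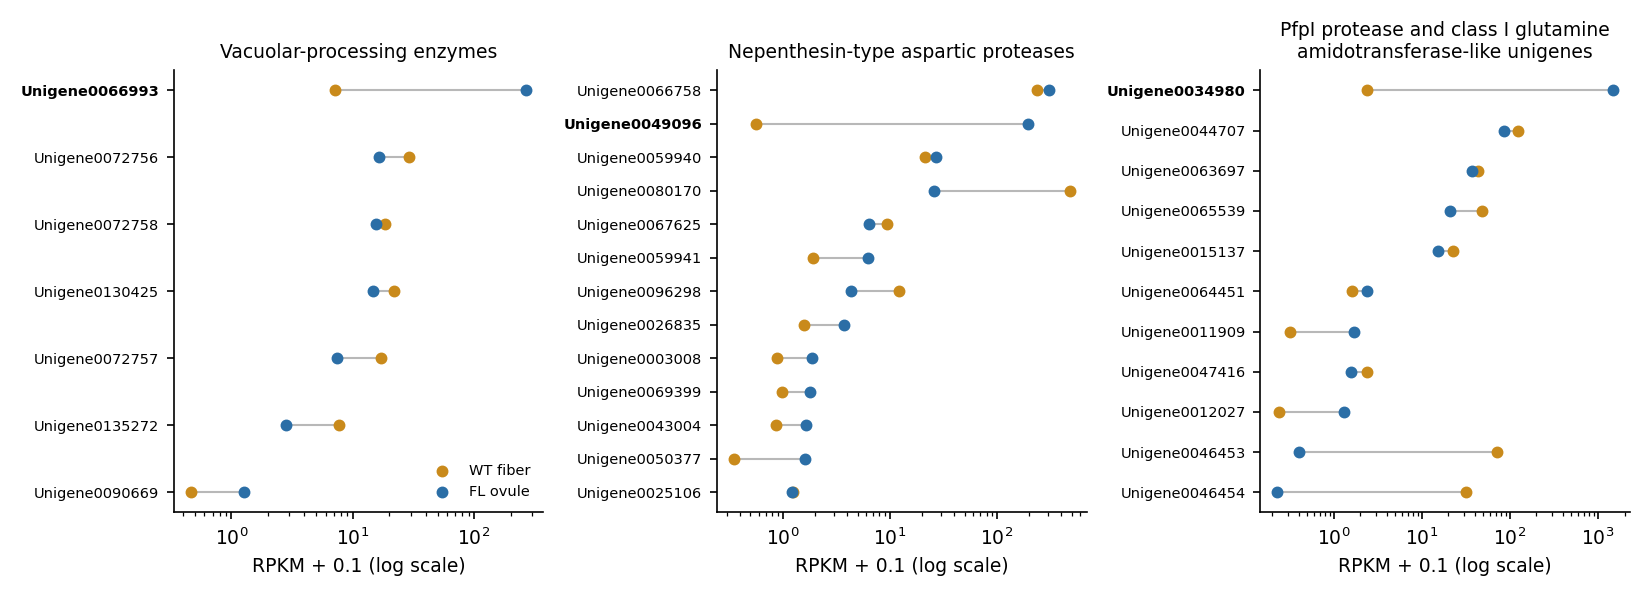
RPKM + 0.1 on a log axis for each measured unigene of the 3 families, WT fiber in ochre and FL ovule in blue, with 1 library each and a line joining the 2 values; the proteases described here are in bold. Unigene0066993 and Unigene0034980 top their panels in FL ovule only, while Unigene0080170, Unigene0046453 and Unigene0046454 lie far towards WT fiber.

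Annotation texts of 9 protease classes matched 696 unigenes, of which 385 were measured. By the ratio with 1 RPKM added, 258 of them were within 2-fold between the libraries, and 73 (19.0%) were at least 2-fold higher in the ovule library, against 15.3% of all measured unigenes. At least 2-fold higher in the fiber library were 54 (14.0%), against 10.5% of all measured unigenes. The median ratio was -0.34 for the proteases and -0.39 for all measured unigenes. With 0.1 RPKM added the counts were 124 and 72 of 385, and those of all measured unigenes 23140 and 9177 of 63258. The protease share towards the ovule was then below that of all measured unigenes. The split also depended on scaling. With an equal RPKM sum it was 48 in the ovule library and 84 in the fiber library, of 358 then measured. On totals that omit the 30 unigenes with most reads it was 130 and 41 of 455. All measured unigenes shifted in the same direction. Their counts were 9697 and 6659 of 63258 as deposited, 3960 and 11478 of 54584 with an equal sum, and 25207 and 5629 of 88792 on the reduced totals. Their median became 0.23 and -0.69 under these scalings.

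In level, the summed RPKM of the proteases was 8215 in the fiber library and 8137 in the ovule library. The 3 members made up 23.9% of that sum in the ovule library and 0.119% in the fiber library. Without them the sums were 8205 RPKM in the fiber library and 6192 RPKM in the ovule library. At 16-fold or more by the ratio with 1 RPKM added, 6 protease unigenes were higher in the ovule library, the 3 members among them. In the fiber library 2 were higher. The shares past 16-fold over all measured unigenes were 0.114% towards the ovule and 0.425% towards the fiber. Since the members were chosen on this contrast, nothing is read from their share. None of the 382 remaining protease unigenes had a ratio with 1 RPKM added as far towards the ovule as Unigene0066993. With nothing added this did not hold, as its fold was 38.4. The metacaspase-9-like Unigene0045577, with 0 reads in the fiber library and 147 in the ovule library, was at least 41.9-fold higher against a floor of 3 reads. The fold of the serine carboxypeptidase Unigene0123300 was 37.1 (29.9 to 46.6).

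**Figure D3:**
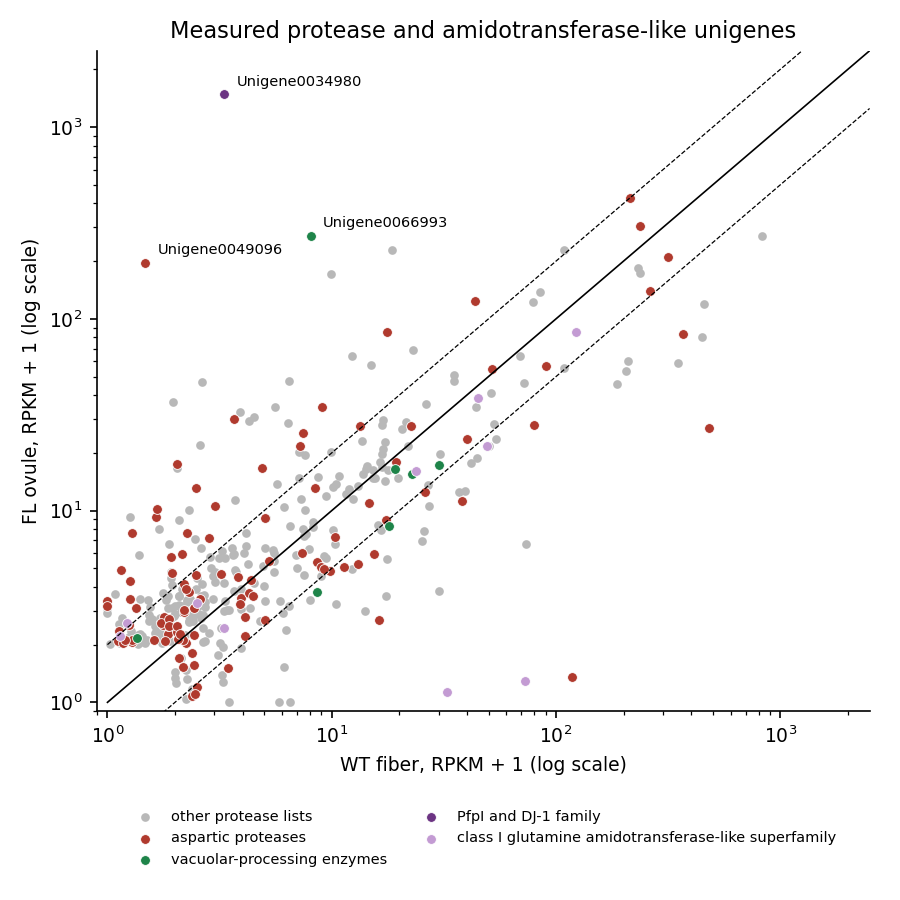
Each point is a measured protease or amidotransferase-like unigene at its RPKM + 1 in WT fiber (x) and FL ovule (y), both log axes, 1 library each; the solid line marks equal levels and the dashed lines 2-fold. The 3 labelled proteases stand at the upper left, with at most 7.04 RPKM in WT fiber and 1479, 270 and 196 RPKM in FL ovule.

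By the ratio with 1 RPKM added, the protease unigenes next in order towards the ovule were serine carboxypeptidases, a subtilase and a papain-type protease. The folds given here have nothing added and would order them otherwise. Among low unigenes, the papain-type Unigene0068044 was 31.3-fold higher (18.8 to 56.4), at 8.30 RPKM in the ovule library. The serine carboxypeptidases Unigene0123300 (S28 family) and Unigene0067084 (type 20), which remove amino acids from the end of a chain, were 37.1-fold (29.9 to 46.6) and 28.1-fold (23.7 to 33.5) higher there. In level they reached 35.8 and 45.8 RPKM in the ovule library, far below the members. The subtilisin-like serine protease Unigene0081276 had 8.94 RPKM in the fiber library and 171 RPKM in the ovule library, a fold of 19.1 (17.6 to 20.7). A papain-type cysteine protease, Unigene0052696, had 17.6 RPKM in the fiber library and 228 RPKM in the ovule library, a fold of 12.9 (12.2 to 13.7). The aspartyl protease Unigene0045602 had 1.04 RPKM in the fiber library and 16.5 RPKM in the ovule library.

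The protease unigenes highest in the fiber library were of the same broad classes. The serine carboxypeptidase-like 49 unigene Unigene0060306 had 827 RPKM in the fiber library and, with 270 RPKM in the ovule library, was there about as high as the vacuolar-processing enzyme. The papain-like Unigene0054919 had 445 RPKM in the fiber library and 79.2 RPKM in the ovule library. The aspartyl protease Unigene0118649 had 9972 reads in the fiber library and 36 reads in the ovule library, or 117 and 0.36 RPKM, a fold of 324 towards the fiber (234 to 463). The aspartic class thus held unigenes far towards either library, and also abundant ones in both, such as Unigene0061101 with 213 RPKM in the fiber library and 426 RPKM in the ovule library and Unigene0054666 with 369 and 82.8 RPKM.

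By class, the counts past 2-fold went in either direction, and most depended on the scaling. Under each scaling they are to be read beside the counts of all measured unigenes given above. Of 105 measured aspartic proteases, 28 (26.7%) were higher in the ovule library and 15 (14.3%) in the fiber library, with a median ratio of -0.35. Over all measured unigenes the shares were 15.3% and 10.5%, with a median of -0.39. After rescaling to an equal RPKM sum the aspartic counts were 21 and 26 of 101. All measured unigenes shifted likewise, to 3960 and 11478 of 54584. The aspartic pattern also took in 6 measured retropepsin texts, and without them the aspartic counts as deposited were 28 and 13 of 99. The aspartic class summed to 2677 RPKM in the fiber library and 2233 RPKM in the ovule library, and Unigene0049096 was 8.76% of it in the ovule library and 0.0175% in the fiber library. Of 7 vacuolar-processing enzymes, 1 (14.3%) was higher in the ovule library and 2 (28.6%) in the fiber library, with a median of 0.55. The counts were 1 and 4 of 6 with an equal RPKM sum, and 2 and 0 of 9 on totals that omit the top 30 by reads.

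Of 54 subtilases, 17 (31.5%) were higher in the ovule library and 9 (16.7%) in the fiber library, with a median of -0.70. Over all measured unigenes the shares were 15.3% and 10.5%, with a median of -0.39. With an equal RPKM sum the subtilase counts were 8 and 14 of 50, and those of all measured unigenes 3960 and 11478 of 54584. By the ratio with 1 RPKM added, the subtilase farthest towards the fiber was Unigene0036919, which had 72.3 RPKM in the fiber library and 5.73 RPKM in the ovule library, and the most abundant one, Unigene0076250, had 236 and 172 RPKM. By fold, Unigene0006072 lay farther, with 194 reads in the fiber library and 0 in the ovule library, at least 75.7-fold higher in the fiber library against a floor of 3 reads. Of 44 serine carboxypeptidases, 12 (27.3%) were higher in the ovule library and 7 (15.9%) in the fiber library, with a median of -0.48. Their counts were 9 and 9 of 38 with an equal RPKM sum. Of 61 papain-type cysteine proteases, 8 (13.1%) were higher in the ovule library and 10 (16.4%) in the fiber library, with a median of -0.34. Their counts were 5 and 16 of 53 with an equal RPKM sum but 17 and 8 of 70 on totals that omit the top 30 by reads. Without OTU-like and calpain texts the counts were 8 and 9 of 51. The papain-type Unigene0068044 had 15 reads in the fiber library and 550 reads in the ovule library, or 0.265 and 8.30 RPKM.

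The remaining classes were organelle proteases, metacaspases and matrix metalloproteinases. There were 97 organelle proteases of the FtsH, Lon, Clp and Deg types, which degrade proteins mainly in organelles such as plastids and mitochondria. Of these, 2 (2.06%) were higher in the ovule library and 7 (7.22%) in the fiber library. Over all measured unigenes the shares were 15.3% and 10.5%. On totals that omit the top 30 by reads the organelle counts were 16 and 5 of 117, and their median ratio was -0.23 as deposited. Lon protease 2 (Unigene0105755) had 24.8 RPKM in the fiber library and 6.83 RPKM in the ovule library, the Clp subunit Unigene0054261 had 42.8 and 33.6 RPKM, and the Lon protease 1 unigene Unigene0076914 had 71 reads in the fiber library and 0 in the ovule library, at least 27.7-fold higher against a floor of 3 reads. Of 11 metacaspases, cysteine proteases known from plant cell death, 3 (27.3%) were higher in each library, with a median of -0.07. The counts were 2 and 4 of 10 with an equal RPKM sum, and 4 and 1 of 11 on totals that omit the top 30 by reads. The metacaspase Unigene0104728 had 186 RPKM in the fiber library and 44.5 RPKM in the ovule library. The metacaspase-9-like Unigene0045577 had 0 reads in the fiber library and 147 reads in the ovule library, at least 41.9-fold higher against the same floor, at only 2.11 RPKM. Of 5 matrix metalloproteinases 1 (20.0%) was higher in each library (0 in the ovule library with an equal RPKM sum), with a median of -0.62. Unigene0078296 had 13.1 RPKM in the fiber library and 1.99 RPKM in the ovule library, and Unigene0037680 had 0.163 and 1.76 RPKM.

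**Figure D4:**
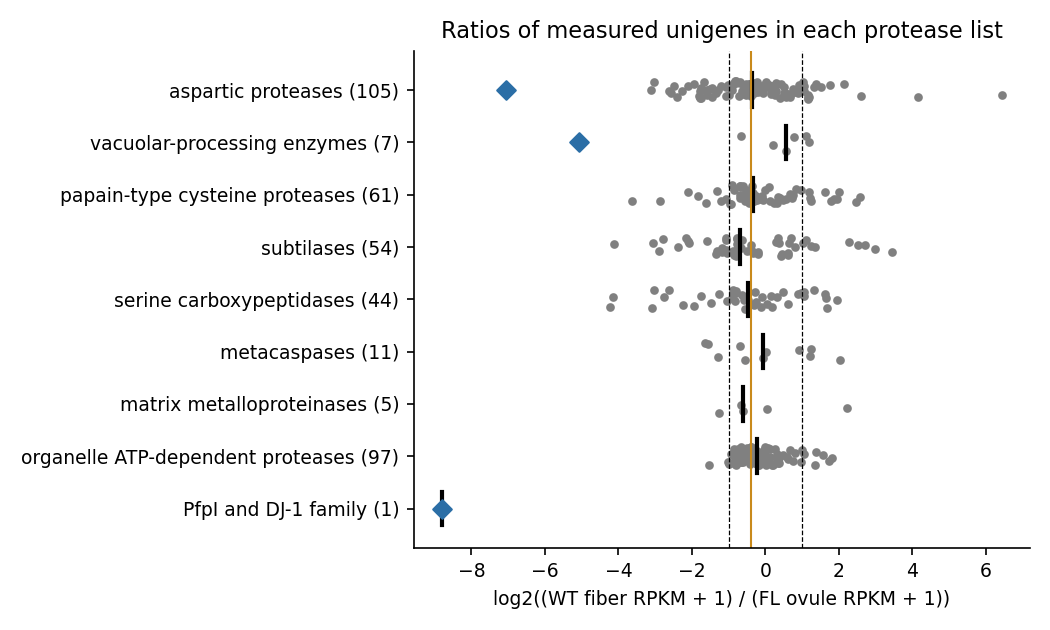
Ratios of all measured unigenes of each protease class, with the number measured in brackets; grey points are unigenes, blue diamonds the 3 proteases described here, black bars the class medians, the ochre line the median of all measured unigenes at -0.39 and the dashed lines 2-fold. By this ratio, with 1 RPKM added, the diamonds at -8.81, -7.07 and -5.08 lie left of every other point.

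A few annotated unigenes had a pair of levels close to those of a member. Closeness was measured as the Euclidean distance in log2(RPKM + 1) over the 2 libraries, with 3 named for each member. Nearest to the vacuolar-processing enzyme was Unigene0089391, annotated as a seed specific protein, with 6.80 RPKM in the fiber library and 191 RPKM in the ovule library, at a distance of 0.499. Next came Unigene0081277, whose text names the protease-associated and propeptide domains that subtilases carry, with 9.26 and 203 RPKM at a distance of 0.54. The third was the hypothetical protein Unigene0128022, with 8.09 and 396 RPKM at a distance of 0.577.

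Nearest to the aspartic proteinase was the berberine family oxidase Unigene0037071, with 1.48 RPKM in the fiber library and 182 RPKM in the ovule library, at a distance of 0.765. Unigene0057016, without a functional text, followed at 1.68. The gibberellin-stimulated transcript Unigene0031567, with 2.53 and 87.9 RPKM, followed at 1.71. The PfpI protease had no close neighbour, but it was chosen at rank 1 by ratio, and the distance uses the same levels. No conclusion is drawn from its distances. Its nearest were the expansin-like B1 unigene Unigene0048776 at a distance of 2.05, Unigene0128022 at 2.39 and the pectin methylesterase inhibitor domain unigene Unigene0033153 at 2.43, with 401, 396 and 573 RPKM in the ovule library against 1479 RPKM for the member.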

How the data were processed

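Each deposited count is the number of unique reads on a unigene, per the file headers, which also print the library total. The authors' RPKM values follow from count, length and total, and were recomputed here to within a relative error of 2.4e-14. The deposited coverage values are treated as a score. The submitters' processing notes name Bowtie and Bowtie2. The assembler, annotation source, strand setting and genome build were not given in the sources used here. None (0) of the unigene names matched the reference gene table, so no genome position is given. Unigene length is as deposited.

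Tables were joined by unigene with Python 3.11.15, pandas 2.3.3 and scipy 1.17.1. Thresholds were 1 RPKM for measured, 2-fold for a difference and a pseudocount of 1 for ratios. Protease, inhibitor, receptor, nuclease and marker lists are patterns on annotation text. Named unigenes are the members, unigenes sharing their text, the 2 with the largest absolute ratio and the most abundant in each list, the 3 nearest to each member, and those at ranks 10 and 11 of the ratio order. Members, lists and rules were chosen with earlier results of these data known. The superfamily, nepenthesin and lysosome groups, the trimmed lists and single unigenes of the families and of the highest levels were chosen after values were seen. The ratio and interval calculations were tested on simulated data.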

Additional observations from a re-analysis of the deposited data

How the results depend on the processing

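The direction of each member's fold was the same under every alternative run. The members were chosen for this ratio, and these alternatives change a fold too little to reverse it, so this outcome was fixed in advance. The PfpI protease had a fold of 416 with a common RPKM sum and 448 with 1 RPKM added, the aspartic proteinase 271 and 134, and the vacuolar-processing enzyme 24.9 and 33.7, with 42.3 under median-ratio scaling and 49.2 with library totals without the 30 most-read unigenes. Counts of class members past 2-fold moved more. The number of measured proteases, 385 as reported, changed as well. It was 183 at 5 RPKM or more, 358 with a common RPKM sum, 455 without the 30 most-read unigenes in the totals and 153 with 1 unigene per annotation text. For all proteases the count higher in FL ovule (73) was 124 with 0.1 RPKM added, 38 with 5 RPKM added, 48 at 5 RPKM or more, 29 at 4-fold, 48 with a common RPKM sum, 130 without the 30 most-read unigenes in the totals and 27 with 1 unigene per annotation text. The count higher in WT fiber (54) was 72 with 0.1 RPKM added, at which most of the 385 proteases were past 2-fold, and 28 with 5 RPKM added, 14 at 4-fold, 84 with a common sum and 24 with 1 unigene per text. For aspartic proteases the FL ovule count (28) was 14 with 5 RPKM added, 17 at 5 RPKM or more, 9 at 4-fold and 6 with 1 unigene per text. Their WT fiber count (15) was 6, 4, 26 and 3 with 5 RPKM added, at 4-fold, with a common sum and with 1 unigene per text. For vacuolar-processing enzymes the FL ovule count (1) was 2 with 0.1 RPKM added and 2 without the 30 most-read unigenes. Their WT fiber count (2) was 0 with 5 RPKM added, 0 at 4-fold, 4 with a common sum, 1 under median-ratio scaling, 0 without the 30 most-read unigenes and 1 with 1 unigene per text. Among the other lists, which include the marker lists and overlapping or trimmed ones, 138 of the alternative counts moved by over 1.5 times or to or from 0. The other 286 did not. The causes of these changes were not tested beyond how each alternative is built.

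No paired analysis was possible because each group has 1 library, and for the same reason no library could be left out. Depth limits the aspartic proteinase and the PfpI protease in WT fiber, where their folds rest on 37 and 47 reads.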

Other observations

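The lysosome pathway tag, which the deposited tables give to the vacuolar-processing enzyme Unigene0066993, marked 173 measured unigenes of 291. Of these, 36 were at least 2-fold higher in the fiber library and 13 in the ovule library, or 20.8% and 7.51% against 10.5% and 15.3% of all measured unigenes, with a median ratio of 0.38. The counts were 74 and 8 of 160 with an equal RPKM sum, and 19 and 32 of 190 on totals that omit the top 30 by reads. Unigene0066993 was the most abundant of the 173 in the ovule library and held rank 84 in the fiber library. The 3 measured vacuolar sorting receptors of 5, which carry proteins to the vacuole, were all within 2-fold. Unigene0082526 had 21.0 RPKM in the fiber library and 21.2 RPKM in the ovule library, Unigene0082527 had 1.42 and 1.6 RPKM, and Unigene0046093 had 0.899 and 1.78 RPKM.

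Of 24 protease inhibitors measured of 35, 6 (25.0%) were at least 2-fold higher in the ovule library and 8 (33.3%) in the fiber library, against 15.3% and 10.5% of all measured unigenes. The counts were 3 and 10 of 22 with an equal RPKM sum. One of the 6, Unigene0081277, carries domains of subtilases rather than of a separate inhibitor. The Kunitz inhibitor Unigene0120198 had 635 reads in the fiber library and 2 reads in the ovule library, 372 times the RPKM (102 to 3075 by counting error). The cysteine proteinase inhibitor Unigene0052145 had 308 RPKM in the fiber library and 99.7 RPKM in the ovule library. Among 13 measured unigenes of the nuclease list (of 29), 1 (7.69%) was at least 2-fold higher in the ovule library and 0 in the fiber library. Over all measured unigenes the shares were 15.3% and 10.5%. The unigene higher in the ovule library was the bifunctional nuclease I unigene Unigene0054041. It had 4.48 RPKM in the fiber library and 47.2 RPKM in the ovule library, a fold of 10.5 (9.24 to 12.1). The Arabidopsis gene of that name is a marker of developmental cell death. Most other texts of the list name bifunctional nucleases of basal defense, which are different proteins, and of these Unigene0044228 had 0.699 RPKM in the fiber library and 1.65 RPKM in the ovule library.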
